A study of Mus musculus with 16 samples.

Results

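The 43 genes described here drive or mark the cell cycle: they unwind and copy DNA, package it into chromosomes or carry out mitosis. They were taken by gene symbol from the count matrices of mouse melanoma infiltrates, and all 43 symbols were found among the 32285 genes of each of the 8 matrices. By role, 9 belong to the replication origin and helicase, 7 to DNA synthesis and nucleotide supply, 3 encode linker histones, 14 are mitotic kinases, cyclins and their regulators, and 10 act in the spindle, the kinetochore or chromosome structure. Their levels were described in marker-gated cell classes as unique molecular identifiers (UMIs, counted mRNA molecules) per 10000 UMIs of a cell class, and as the share of cells with at least 1 UMI of Mki67 or Top2a.

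A dividing cell first loads and fires replication origins, then copies its DNA and makes new histones, and finally condenses and segregates its chromosomes under the control of cyclin-dependent kinase 1, the aurora kinases and Polo-like kinase 1. E2F factors switch on the replication genes at the start of this programme, while the mitotic genes are held down in resting cells by the DREAM complex, which binds CHR elements in their promoters, and many are activated by NF-Y at CCAAT boxes. In tumours, expression of these genes is used as a sign of dividing cells: lymphocytes divide after antigen recognition, and some tumour macrophages divide locally. CD40 is a receptor of the tumour necrosis factor family on antigen-presenting cells, and an antibody that stimulates it activates dendritic cells, B cells and macrophages.

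The study implanted 1000000 melanoma cells under the skin of C57BL/6J mice and injected 100 µg of a CD40 agonist antibody or of a rat IgG2a isotype antibody into the abdomen on days 6, 9 and 12. The tumours were taken on day 14. The tumour line was Bro4.1, a derivative of B16 melanoma, used as a control or after loss of B2m, the gene for beta-2 microglobulin, without which cells cannot present antigen on MHC class I. CD45+ leukocytes were selected on magnetic columns, each mouse was tagged with a hashtag antibody, and the mice of a group were pooled before droplet sequencing of transcript 3′ ends. The sample labels attach the genotype to the mouse and the series' design description to the tumour line, and the latter is followed here. The hashtags gave 5 mice for control tumours with isotype (3 in pool 1 and 2 in pool 2), 2 mice for control tumours with anti-CD40, 5 mice for B2m-null tumours with isotype (3 and 2), and 4 mice for B2m-null tumours with anti-CD40 (2 and 2). The 2 control anti-CD40 lanes were technical replicates of 1 pool and were summed, so for that group treatment and pool cannot be told apart.

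The 8 lanes held 45985739 to 99264875 UMIs and 116552 cell barcodes, with medians of 1715 to 4225 UMIs per barcode. Of the barcode sequences, 1649 of 114890 occurred in more than 1 lane, and any 2 lanes shared 41 to 92. The share of barcodes assigned to 1 mouse was 32.1% in pool 1 of B2m-null isotype and 58.1% in pool 1 of B2m-null anti-CD40, against 75.0% to 91.8% in the other lanes, and these pools are left out in turn where a result rests on them. B2m checked the genotype in melanoma cells carried over through the selection: it stood at 10.6 to 21.3 per 10000 UMIs in the 4 control lanes and at 1.92 to 4.67 in the 4 B2m-null lanes. In CD8 T cells it stood at 24.8 to 34.8 in every lane. Per-mouse sums of a class were tested with edgeR's quasi-likelihood test over all 4 groups, with Benjamini-Hochberg adjustment over all genes tested, and a gene is called at an adjusted p under 0.05. Mice of a pool shared lanes, so p-values over mice do not cover differences between pools. Most genes named below were picked by their adjusted p in these same fits. Groups without overlap in such genes describe the values and are no added support, and the share of all genes without overlap was not counted.

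The promoters are shown first because the roles that order the results below hold different motifs. RefSeq promoter windows on GRCm38.p6, from 250 bases before to 50 after each start, were found for 37 of the 43 genes and were missing for Stmn1, Ccna2, Aurkb, Mcm4, Gins2 and Tpx2. The search covered 3 kinds of motif on both strands: the CHR (TTTGAA), the CCAAT box of the factor NF-Y (CCAAT), and an E2F site (TTTCCCGC, TTTGGCGC, TTTCGCGC or TTTGCCGC). The CHR was present in 9 of 12 promoters of mitotic kinases, cyclins and regulators, in 6 of 8 of spindle and chromosome genes, in 2 of 3 of linker histones, in 2 of 7 of origin and helicase genes and in 0 of 7 of DNA synthesis genes, against 17.9% of all 32851 promoters. The E2F letters were present in 5 of 7 origin and helicase promoters, against 2.27% of all promoters. They were present in 1 of 7 of DNA synthesis genes, 0 of 3 of linker histones, 1 of 12 of mitotic regulators and 0 of 8 of spindle and chromosome genes. CCAAT was present in 32 of 37 promoters (86.5%) against 37.4% of all, and 19 of 37 (51.4%) held both a CHR and a CCAAT against 6.95% of all. In 6 promoters (Mcm5, Mcm6, Mcm7, Uhrf1, Ube2c and Cdca8) matches overlapped each other. A match is a description of letters and not a bound site, and no match says only that these letters are not in this window.

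Below are 7 promoters of genes on which the results turn, each from 250 bases before to 30 after the start, read 5′ to 3′ on the gene's strand, with the matched motif letters (either strand) in capitals. They are Mki67 (chr7:135716350-135716629), the proliferation antigen; Ccnb2 (chr9:70421525-70421804), a mitotic cyclin; Cdk1 (chr10:69352883-69353162), the mitotic kinase; Mcm6 (chr1:128359676-128359955), a helicase subunit; Tyms (chr5:30073596-30073875), thymidylate synthase; and the linker histones Hist1h1b (chr13:21780596-21780875) and Hist1h1e (chr13:23622529-23622808). All 7 lie on the minus strand of GRCm38.p6.
Mki67: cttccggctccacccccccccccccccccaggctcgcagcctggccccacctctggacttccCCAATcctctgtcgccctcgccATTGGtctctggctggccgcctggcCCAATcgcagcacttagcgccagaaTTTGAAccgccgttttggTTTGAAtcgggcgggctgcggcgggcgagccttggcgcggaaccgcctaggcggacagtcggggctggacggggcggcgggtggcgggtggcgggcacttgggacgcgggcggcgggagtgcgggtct
Ccnb2: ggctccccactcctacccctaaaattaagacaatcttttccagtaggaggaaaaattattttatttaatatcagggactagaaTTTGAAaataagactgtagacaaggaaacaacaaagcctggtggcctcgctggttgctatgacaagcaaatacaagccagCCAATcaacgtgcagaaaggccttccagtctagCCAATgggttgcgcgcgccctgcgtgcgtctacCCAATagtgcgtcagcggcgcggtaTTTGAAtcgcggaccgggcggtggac
Cdk1: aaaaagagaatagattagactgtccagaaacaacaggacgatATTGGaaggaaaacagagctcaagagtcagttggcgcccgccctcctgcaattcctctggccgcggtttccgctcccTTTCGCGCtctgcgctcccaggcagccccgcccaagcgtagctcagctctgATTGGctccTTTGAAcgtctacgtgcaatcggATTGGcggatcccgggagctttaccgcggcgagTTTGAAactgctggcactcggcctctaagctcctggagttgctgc
Mcm6: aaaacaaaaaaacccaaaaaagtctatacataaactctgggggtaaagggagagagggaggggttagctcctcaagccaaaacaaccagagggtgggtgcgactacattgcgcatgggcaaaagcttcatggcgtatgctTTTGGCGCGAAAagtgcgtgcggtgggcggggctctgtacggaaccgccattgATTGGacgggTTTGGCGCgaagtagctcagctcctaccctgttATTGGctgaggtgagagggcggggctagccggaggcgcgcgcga
Tyms: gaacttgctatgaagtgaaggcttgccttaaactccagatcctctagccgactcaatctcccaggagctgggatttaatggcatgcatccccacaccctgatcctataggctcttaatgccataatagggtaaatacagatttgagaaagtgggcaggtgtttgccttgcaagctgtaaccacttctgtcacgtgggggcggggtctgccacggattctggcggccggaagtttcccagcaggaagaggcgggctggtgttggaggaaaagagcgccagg
Hist1h1b: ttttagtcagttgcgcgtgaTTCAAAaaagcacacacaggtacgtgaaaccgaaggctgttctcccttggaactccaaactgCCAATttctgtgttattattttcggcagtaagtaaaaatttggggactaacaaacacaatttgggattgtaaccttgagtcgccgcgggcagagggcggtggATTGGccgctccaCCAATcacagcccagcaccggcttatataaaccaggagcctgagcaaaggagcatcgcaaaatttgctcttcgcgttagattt
Hist1h1e: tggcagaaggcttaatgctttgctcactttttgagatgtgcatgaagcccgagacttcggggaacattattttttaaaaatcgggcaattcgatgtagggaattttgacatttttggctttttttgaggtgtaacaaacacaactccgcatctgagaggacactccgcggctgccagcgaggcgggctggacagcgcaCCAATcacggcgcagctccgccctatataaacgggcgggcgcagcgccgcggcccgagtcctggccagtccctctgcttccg
Mki67, Ccnb2 and Cdk1 each held 2 CHR and 3 CCAAT matches, and Cdk1 held 1 E2F match as well. Mcm6 held 3 E2F and 2 CCAAT matches and no CHR, and Tyms held none of the motifs. Hist1h1b held 1 CHR and 3 CCAAT matches, and Hist1h1e held a single kind, with 1 CCAAT match.

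**Figure D1:**
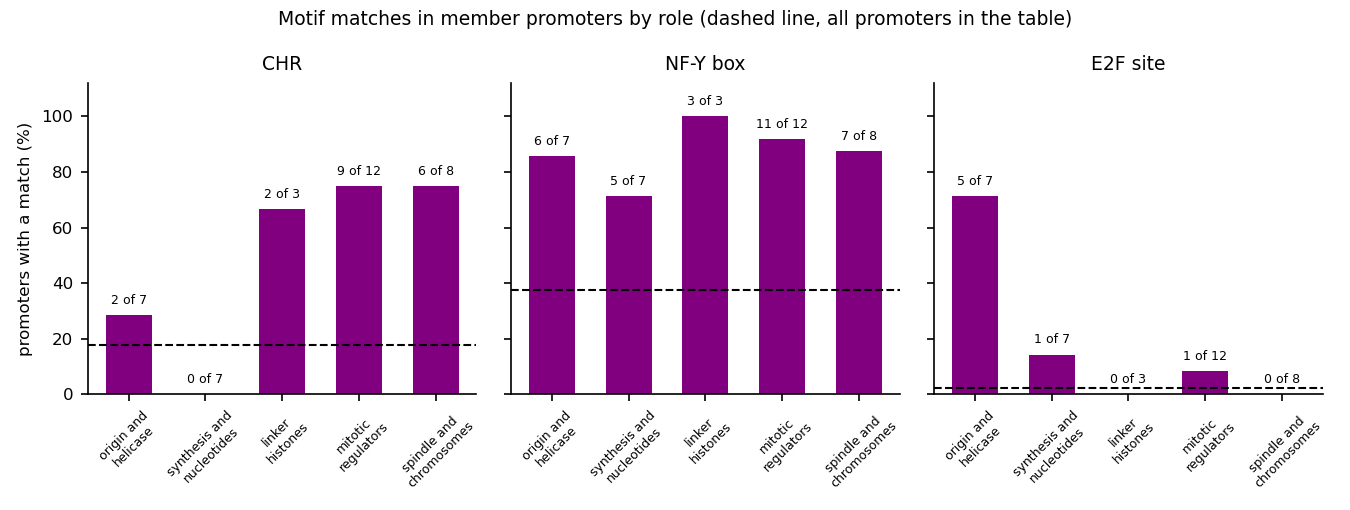
Share of promoters with a motif match (y axis, percent) for the 5 roles, in 1 panel per motif; the count is printed above each bar and the dashed line is the share of all 32851 promoters. CHR matches stand at 0 of 7 for DNA synthesis genes and at 9 of 12 for mitotic regulators, and E2F matches stand at 5 of 7 for origin and helicase genes.

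Among the immune classes, the share of cells with Mki67 or Top2a reached its highest values in T cells, and in control tumours the means of the 2 treatments lay farthest apart there among the 5 sets tested. Mki67 encodes a protein that coats mitotic chromosomes, and Top2a encodes the topoisomerase that untangles replicated DNA. Among CD8 T cells of control tumours, the 5 isotype mice had shares of 62.1%, 44.7%, 62.2%, 55.3% and 49.3% (mean 54.7% ± 7.75, SD, n = 5), and the 2 anti-CD40 mice had 25.7% and 19.4% (22.5% ± 4.47, SD, n = 2). Every anti-CD40 mouse lay below every isotype mouse. Median depth differed too, at 3236 to 4949 UMIs per cell under isotype and 1721 to 2000 under anti-CD40. With each cell thinned to 1000 UMIs the shares were 36.6%, 27.4%, 39.8%, 32.9% and 26.4% against 18.0% and 13.3%, and the groups still did not overlap. Thinning left out cells under 1000 UMIs, so that 1187 of 1455 and 3834 of 5078 CD8 T cells remained in the anti-CD40 mice, and 470 of 488, 164 of 190, 239 of 249, 334 of 338 and 269 of 282 in the isotype mice. Plasmacytoid dendritic cells, which hardly divide in tissue, gave the background for the measure: 1.67% to 5.46% of them had a UMI, at median depths of 972 to 3348. Every mouse with 20 or more such cells lacking both genes was an isotype mouse, so this background does not cover the anti-CD40 groups.

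In B2m-null tumours the 2 anti-CD40 pools stood apart. Pool 1 mice had shares of 48.8% and 53.3% among CD8 T cells and pool 2 mice 21.4% and 27.8%, at median depths of 2370 to 2779 UMIs, while the 4 isotype mice had 53.8%, 46.2%, 42.2% and 37.0%. Pool 1 lay among the isotype mice and pool 2 lay below all of them. These isotype shares rest on 39, 26, 419 and 73 cells. Among cells with either gene, median depth was 2787, 8670 and 6828 UMIs in 3 of the isotype mice and 3912 to 5100 under anti-CD40. Thinned shares are not given for these mice, so the place of the pools is not separated from depth. The group means were 37.8% ± 15.6 (SD, n = 4) and 44.8% ± 7.10 (SD, n = 4), a difference smaller than the spread between mice. The difference was -20.2 percentage points without pool 1 of B2m-null anti-CD40 and 6.20 points without pool 2. CD4 T cells split in the same place, with 55.6% and 56.4% in pool 1 (27 and 39 cells) and 13.9% and 20.8% in pool 2. Natural killer (NK) cells also split by pool, with 35.6% and 34.9% against 8.24% and 20.6%. Of the 2 isotype mice with enough NK cells, 1 had either gene in 53 of 326 cells. The other had neither gene in 104 of 114 cells. In NK cells pool 1 thus lay above both isotype mice, and pool 2 lay on both sides of them, unlike in CD8 T cells. Which of the pools stands for the treatment was not tested, and the lower hashtag assignment belongs to pool 1.

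CD4 T cells of control tumours had shares of 36.2%, 51.0%, 61.3%, 37.1% and 43.9% under isotype and 11.2% and 12.4% under anti-CD40, with no overlap. NK cells had 10.2% to 15.6% under isotype and 10.1% and 11.1% under anti-CD40, which overlapped. Monocytes and macrophages had 14.3% to 30.6% under isotype and 10.6% and 17.7% under anti-CD40 in control tumours, and 17.7% to 36.0% and 18.6% to 23.1% in B2m-null tumours. Within that class, cells on the C1q side, with more UMIs of the complement C1q genes of mature macrophages, had shares of 22.5%, 23.1%, 38.1%, 36.6% and 30.3% under isotype and 12.8% and 19.2% under anti-CD40 in control tumours, without overlap. In B2m-null tumours the C1q side had 23.4% to 42.1% under isotype and 22.5% to 30.0% under anti-CD40, which overlapped. Cells on the Ly6c2 side, the monocyte side, had 4.23% to 9.57% over all 4 groups. The makeup of the class also differed: the Ly6c2 side made up 23.9%, 43.0%, 24.8%, 17.5% and 24.6% of it under isotype and 11.3% and 5.41% under anti-CD40 in control tumours, and 16.4% to 39.9% and 13.0% to 26.4% in B2m-null tumours. The control groups did not overlap and the B2m-null groups did. The part of this makeup in the values of the whole class was not tested for single genes. Thinned to 1000 UMIs, the C1q side of control tumours had 9.74% to 16.7% under isotype and 6.08% and 7.35% under anti-CD40. Conventional dendritic cells had 19.6% to 30.2% and 9.80% and 20% in control tumours, and 11.7% to 24.0% and 17.9% to 28.0% in B2m-null tumours. Thinned to 1000 UMIs, the mean difference between treatments went from -9.07 to -1.96 percentage points in control and from 5.53 to -0.66 in B2m-null tumours, and cells under 1000 UMIs were left out there too. B cells of B2m-null tumours under anti-CD40 had 27.6%, 32.4% and 22.9% against 7.50% and 5.88% under isotype, from 35 to 85 cells per mouse and at unequal depth (1880 to 3205 UMIs against 795 to 1692 in the other groups). Both of these isotype mice come from pool 2. Over all B cells of a lane, isotype pool 1 had 21.7% (10 of 46 cells) and the 2 anti-CD40 pools 25.6% and 28.6%, and thinned to 1000 UMIs these shares were 12.5%, 14.4% and 14.5%.

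**Figure D2:**
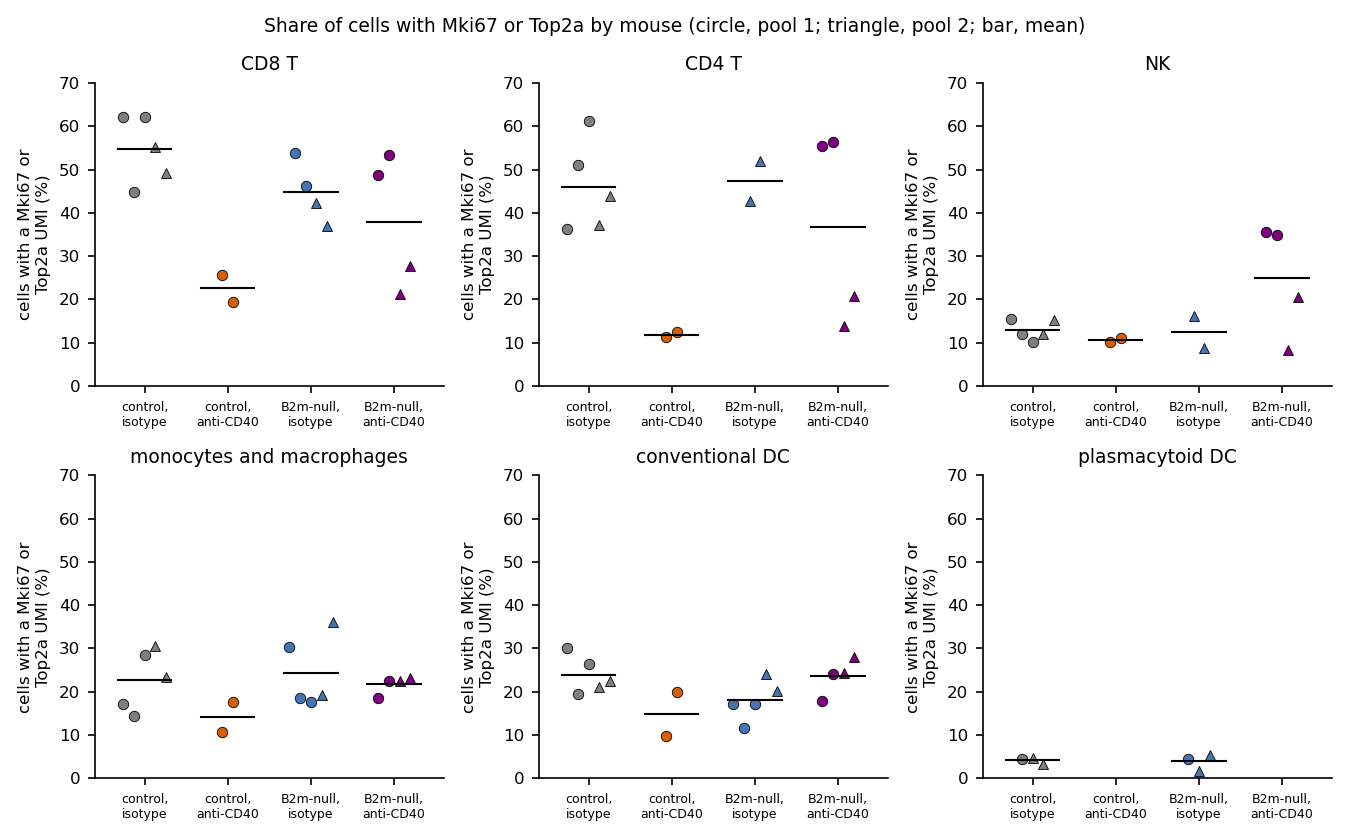
Share of cells with a Mki67 or Top2a UMI (y axis, percent) in 6 cell classes for each mouse of the 4 groups; circles are pool 1, triangles pool 2, bars group means, and the control anti-CD40 mice all come from 1 pool. Control anti-CD40 CD8 T cells sit at 19.4% and 25.7%, below all 5 isotype mice. The B2m-null anti-CD40 mice split by pool in CD8 T, CD4 T and NK cells and not in monocytes and macrophages.

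CD8 T cells of control tumours had the most of the 43 genes called among the 5 sets, and this count rests on more cells than that of CD4 T cells. Anti-CD40 mice had lower levels of 40 of the 43 by edgeR's quasi-likelihood test, where 18.8% of all genes tested were called lower, and the median log2 fold change of the 43 was -1.19. The summed level of all 43 was 75.0, 62.9, 70.7, 65.3 and 63.2 per 10000 UMIs in the isotype mice and 37.3 and 24.1 in the anti-CD40 mice, again without overlap. The count was 23 without pool 1 of control isotype, and 21 when lanes were the samples and cells with no assigned mouse were added, where 5.98% of all genes were called lower. That alternative, named lanes as samples below, changes the sample unit and the cells together, and it sums the lanes of control anti-CD40 to 1 sample, which is assumed to vary like the other groups. Most alternative counts below stand without the share of all genes called, so a shift is not shown to be particular to the members. By role, 8 of 9 origin and helicase genes, 6 of 7 synthesis genes, 3 of 3 linker histones, 14 of 14 mitotic regulators and 9 of 10 spindle and chromosome genes were called lower, with median log2 fold changes of -1.08, -1.12, -2.64, -1.34 and -1.10. In bulk sums of a class, fewer dividing cells and less RNA per dividing cell cannot be told apart, and 75.8% to 95.4% of the UMIs of the 43 genes came from cells with Mki67 or Top2a in each mouse. That percentage counts the UMIs of Mki67 and Top2a, which all lie in such cells by definition, so it is partly fixed in advance. Within these cells the 43 genes summed to 77.6 to 88.2 per 10000 UMIs under isotype and 53.6 and 73.5 under anti-CD40 in control tumours. The parts of this level and of the share of such cells in the calls were not tested.

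Among the origin and helicase genes, Gins2, a subunit of the GINS complex that activates the helicase, had 43.8, 41.7, 37.7, 23.6 and 38.4 UMIs per 1000000 UMIs (CPM) in the isotype mice and 9.76 and 6.31 in the anti-CD40 mice. The groups did not overlap, and the log2 fold change was -2.22 (SE 0.31, adjusted p 3.2e-05). Cdc45, which travels with the helicase, had a log2 fold change of -1.5. Mcm6 was the member of this role that was not called, at -0.39 (SE 0.18, adjusted p 0.092 by edgeR). Of the synthesis genes, Tyms, which makes the thymidine nucleotide, had 91.6, 82.4, 95.8, 89.2 and 76.1 CPM under isotype and 35.0 and 23.2 under anti-CD40, with a log2 fold change of -1.57 (SE 0.25, adjusted p 9.3e-05). Pcna, the sliding clamp that holds DNA polymerase on its template, had 565, 430, 533, 532 and 518 CPM against 460 and 330. Its groups overlapped, and at -0.34 (SE 0.30, adjusted p 0.4) it was not called. Pcna was also detected outside the cells with Mki67 or Top2a: 35.2% of the 8944 CD8 T cells without either gene had a Pcna UMI, against 74.8% of the 3647 with one. For Mcm6 these shares were 17.8% and 50.6%, and for Stmn1 8.73% and 70.3%.

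All 14 mitotic regulators were called lower. Cdk1, the kinase that drives entry into mitosis, had 137, 125, 126, 119 and 111 CPM in the isotype mice and 50.9 and 34.6 in the anti-CD40 mice (log2 fold change -1.51, SE 0.28, adjusted p 0.00042 by edgeR). Its cyclin partner Ccnb2 had 114, 106, 95.8, 86.0 and 107 CPM against 43.7 and 25.5 (-1.54, SE 0.29, adjusted p 0.00045). Cdca8, a subunit of the chromosomal passenger complex, had 127, 123, 131, 109 and 114 CPM against 47.8 and 30.0 (-1.61, SE 0.29, adjusted p 0.00032). The groups did not overlap in any of these 3 genes. Cdkn3, a phosphatase that acts on cyclin-dependent kinases, had 30.5, 26.1, 30.7, 40.4 and 33.7 CPM against 15.7 and 8.62 (-1.46), and Aurka, the centrosomal aurora kinase, had -0.88.

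Among the spindle and chromosome genes, Mki67 had 318, 267, 291, 292 and 263 CPM under isotype and 158 and 103 under anti-CD40 (log2 fold change -1.09, SE 0.26, adjusted p 0.0029 by edgeR). Top2a had 534, 431, 529, 469 and 476 CPM against 235 and 163 (-1.25, SE 0.30, adjusted p 0.0031). Stmn1, a microtubule-destabilising protein, had 599, 475, 541, 559 and 464 CPM against 373 and 211 (-0.81, SE 0.25, adjusted p 0.016). None of these 3 genes had overlapping groups. Cenpa, the histone H3 variant of the centromere, had 380, 309, 353, 431 and 314 CPM against 179 and 144 (log2 fold change -1.10), and Kif23, a motor of cell division, was not called at -0.43 (SE 0.28, adjusted p 0.23 by edgeR). In CD8 T cells of both treatments melanoma markers summed to at most 0.511 per 10000 UMIs, and monocyte and macrophage markers to 8.50 to 18.0 in the 4 groups. Conventional dendritic cell markers in CD8 T cells stood at 0.974 to 1.83 under isotype and 0.291 to 0.388 under anti-CD40 in control tumours, with all 11 markers detected in both. Plasmacytoid dendritic cell markers stood at 2.02 to 3.80 and 1.46 to 1.85. The class's own markers were higher under anti-CD40, with T cell markers at 33.3 to 38.2 and 40.7 to 42.8 and CD8 markers at 8.50 to 10.7 and 12.5 to 14.0. The gate required UMIs of these same markers in each cell, and median depth was lower under anti-CD40. These levels are therefore tied to the gate and to depth, and are no measure of the treatment. The part of these lists in the result was not tested.

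**Figure D3:**
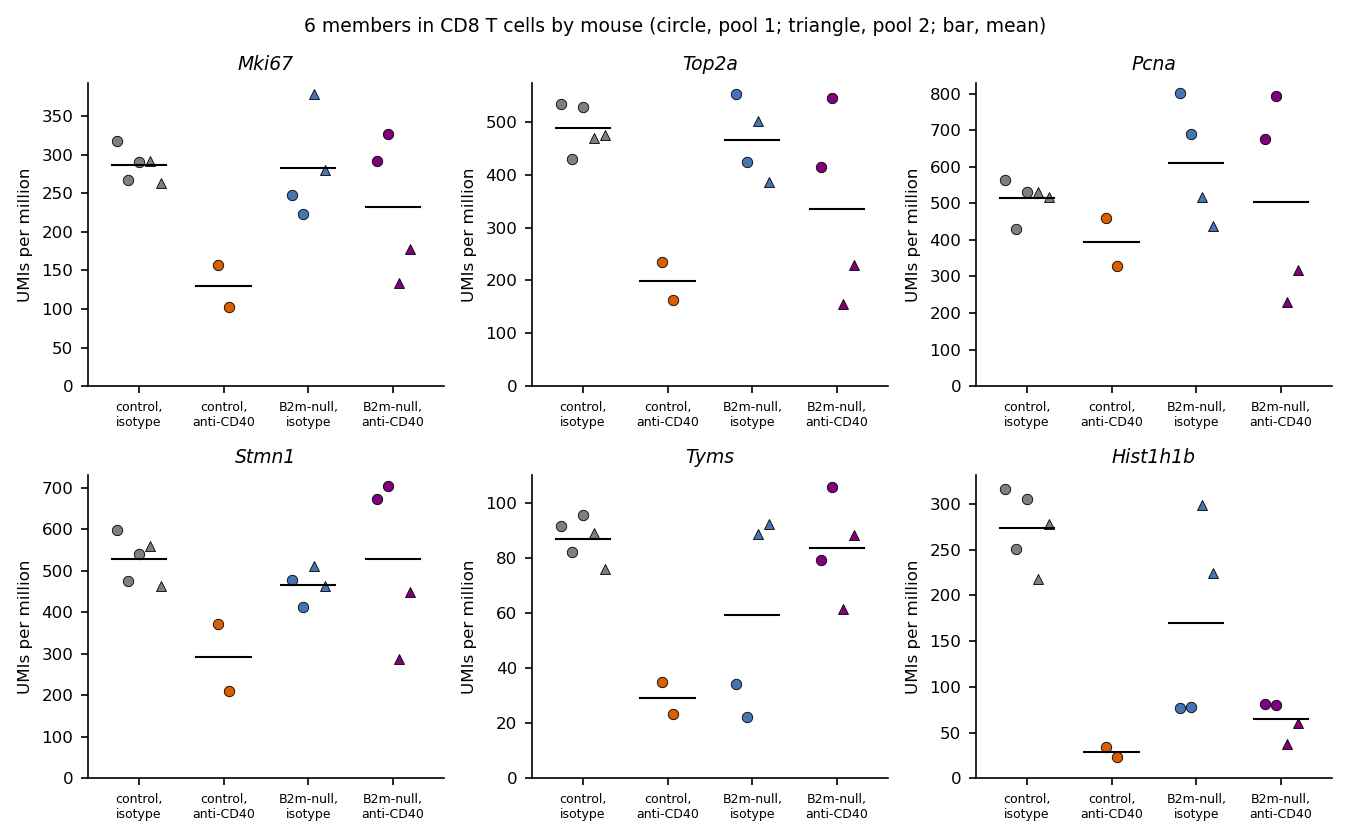
CPM (y axis, each panel on its own scale from 0) of Mki67, Top2a, Pcna, Stmn1, Tyms and Hist1h1b in CD8 T cells of each mouse; circles are pool 1, triangles pool 2, bars group means. Control anti-CD40 mice sit below control isotype mice in every panel but Pcna, where 460 lies above the lowest isotype mouse at 430.

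In B2m-null tumours the same contrast called few members in CD8 T cells. The 3 linker histones, and no other member, were lower under anti-CD40, where 3.34% of all genes were called lower, and the median log2 fold change of the 43 was -0.29. The count was 25 without pool 1 of B2m-null anti-CD40 and 1 without pool 2 of B2m-null isotype. Conventional dendritic cell markers in these cells stood at 1.28 to 2.79 per 10000 UMIs under isotype and 0.263 to 0.373 under anti-CD40, with all 11 detected in both. T cell markers stood at 29.4 to 33.7 and 41.0 to 66.9, and CD8 markers at 9.17 to 10.8 and 11.7 to 15.9. Both lists were used by the gate itself, so their levels are tied to it and to depth. The part of these lists in the linker histone calls was not tested. The summed levels showed the split: 66.4 and 76.9 per 10000 UMIs in pool 1 and 27.3 and 39.3 in pool 2 under anti-CD40, against 66.8, 67.2, 68.3 and 52.1 under isotype. Mki67 had 292 and 327 CPM in pool 1 and 134 and 177 in pool 2, against 247, 223, 379 and 280 under isotype (log2 fold change -0.24, SE 0.23, adjusted p 0.58 by edgeR). Stmn1 had 673 and 705 CPM in pool 1 and 288 and 447 in pool 2, against 477, 413, 511 and 462 (0.33, SE 0.22, adjusted p 0.37). Pcna had 678 and 794 in pool 1 and 231 and 316 in pool 2, against 801, 691, 517 and 437. Top2a had 414 and 545 in pool 1 and 155 and 229 in pool 2, against 554, 424, 503 and 387 (log2 fold change -0.30, SE 0.26, adjusted p 0.51 by edgeR). In Mki67 and Pcna pool 2 lay below all isotype mice and pool 1 lay within their range. In Top2a pool 2 also lay below all isotype mice. In Stmn1 pool 2 reached into the isotype range and pool 1 lay above it.

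The genotype contrast under isotype called 0 of the 43 members in CD8 T cells by edgeR's quasi-likelihood test, where 0.358% of all genes were called in either direction. At an unadjusted p under 0.05, 3 members passed, and DESeq2 called 0. Under anti-CD40, 17 members were higher in B2m-null than in control tumours, where 5.56% of all genes were called higher, and all 43 fitted fold changes were above 0 with a median log2 value of 0.86. The 17 were 9 mitotic regulators, 3 synthesis genes, 2 linker histones, 2 spindle and chromosome genes and 1 origin gene. Tyms had 79.2, 106, 61.6 and 88.3 CPM in the B2m-null mice and 35.0 and 23.2 in the control mice (log2 fold change 1.63, SE 0.25, adjusted p 0.0013 by edgeR), and every B2m-null mouse lay above both control mice. Cdkn3 had 36.5, 45.8, 20.4 and 24.9 CPM against 15.7 and 8.62 (1.48, SE 0.28, adjusted p 0.0039), again without overlap. Beside the control values given above, Ccnb2 had 111, 135, 48.1 and 79.1 CPM in the B2m-null mice (1.49, SE 0.30, adjusted p 0.0058), Cdk1 had 135, 158, 53.5 and 83.5 (1.36, SE 0.29, adjusted p 0.0072), and Gins2 had 32.0, 27.5, 11.4 and 19.8 (1.48, SE 0.32, adjusted p 0.0085). In all 3 the lowest B2m-null mouse, from pool 2, lay just above the highest control mouse. The count was 7 without pool 1 of B2m-null anti-CD40, 39 without pool 2, 8 without pool 1 of control isotype, 3 after thinning and 0 with lanes as samples.

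The test of the difference itself, anti-CD40 against isotype in B2m-null minus the same in control tumours, called 13 members higher in CD8 T cells, where 5.93% of all genes were called higher. Tyms had an interaction of 1.83 on the log2 scale (SE 0.34, adjusted p 0.0035 by edgeR), Cdkn3 1.93 (SE 0.40, adjusted p 0.0062) and Cdk1 1.74 (SE 0.39, adjusted p 0.0088). For Tyms the isotype mice of B2m-null tumours were themselves split, with 34.1 and 22.3 CPM in pool 1, from 39 and 26 cells, and 88.9 and 92.4 in pool 2. Birc5, survivin of the chromosomal passenger complex, had 139 and 81.4 CPM in control anti-CD40 mice against 311, 331, 278, 268 and 236 under isotype, and 318 and 371 in pool 1 and 126 and 199 in pool 2 of B2m-null anti-CD40 against 222, 212, 265 and 149 (interaction 1.69, SE 0.40, adjusted p 0.012 by edgeR). Cenpa had 248 and 324 in pool 1 and 178 and 184 in pool 2 of B2m-null anti-CD40 against 341, 156, 240 and 244 (interaction 1.2, SE 0.28, adjusted p 0.012). The control groups did not overlap in either gene and the B2m-null groups did. The 13 also held 7 mitotic regulators in all, both Hist1h1b (1.59) and Hist1h1e (1.25), and Cenpa, Stmn1 (1.14) and Gins2 (1.55). The count was 8 without pool 1 of B2m-null anti-CD40, 38 without pool 2, 5 without pool 2 of B2m-null isotype, 1 without pool 1 of control isotype, 4 after thinning and 0 with lanes as samples. The contrasts share mice, so their counts are not independent of each other.

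CD4 T cells, with 25 to 330 cells per mouse, had 38 members tested. In control tumours 25 were lower under anti-CD40, where 6.01% of all genes were called lower, with a median log2 fold change of -1.76. That median change was larger than in CD8 T cells, where more members were called. By role these were 10 of 10 spindle and chromosome genes, 6 of 7 synthesis genes, 2 of 2 linker histones, 4 of 13 mitotic regulators and 3 of 6 origin genes. Cenpf, a kinetochore protein, had 207, 163, 232, 248 and 220 CPM in the isotype mice and 60.8 and 31.4 in the anti-CD40 mice (log2 fold change -2.27, SE 0.38, adjusted p 0.0008 by edgeR). Tpx2, which targets Aurora A to the spindle, had 96.0, 123, 172, 120 and 130 CPM against 40.6 and 18.3 (-2.18, SE 0.44, adjusted p 0.0038). Both genes were lower in each anti-CD40 mouse than in any isotype mouse, and so was Mki67, with 344, 309, 351, 479 and 385 CPM against 142 and 62.9 (-1.93, SE 0.45, adjusted p 0.0083). Top2a, with 369, 373, 605, 471 and 704 CPM against 162 and 107, Stmn1, with 435, 589, 531, 595 and 592 against 203 and 189, and Tyms, with 116, 87.5, 127, 95 and 71.7 against 25.3 and 23.6, were also apart and called (-1.90, -1.44 and -1.95). Pcna, with 425, 595, 434, 331 and 511 CPM against 264 and 398, overlapped and was not called at -0.40 (SE 0.40, adjusted p 0.56). The count was 8 without pool 1 of control isotype, 16 without pool 2, 14 without lane 1 of control anti-CD40, 7 after thinning cells to 1000 UMIs, and 3 with lanes as samples, where 0.158% of all genes were called lower.

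The CD4 gate held conventional and regulatory T cells together, and its makeup differed between treatments. Regulatory T cell markers (Foxp3, Il2ra, Ikzf2 and Ctla4, all 4 detected in every group) summed to 23.6 to 34.0 per 10000 UMIs under isotype and 10.0 to 12.0 under anti-CD40 in control tumours, and to 25.6 to 28.8 and 7.67 to 14.0 in B2m-null tumours. Conventional dendritic cell markers in the gate stood at 1.46 to 1.65 under isotype (10 of 11 detected) and 0.253 to 0.707 under anti-CD40 (7 of 11) in control tumours, and at 2.45 to 2.60 (9 of 11) and 0.185 to 0.806 (8 of 11) in B2m-null tumours. The part of these marker lists in the difference was not tested for single genes. The share of cells with Mki67 or Top2a was also measured in the Foxp3-negative cells, those without a Foxp3 UMI. There it was 32.5%, 44.7%, 66.7%, 18.2% and 33.3% under isotype and 11.6% and 12.0% under anti-CD40 in control tumours, and the groups did not overlap. A regulatory T cell without a counted Foxp3 UMI stays among the Foxp3-negative cells, so this split does not remove the makeup. In B2m-null tumours with anti-CD40 the Foxp3-negative shares were 56.5% and 55.3% in pool 1 and 12.7% and 20% in pool 2.

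In B2m-null tumours 3 members were lower in CD4 T cells under anti-CD40, where 1.79% of all genes were called lower: Hist1h1b (-2.05), Hist1h1e (-1.57) and Cenpf (-1.25). Cenpf had 121 and 115 CPM in pool 1 and 40.9 and 67.8 in pool 2, against 150 and 214 in the 2 isotype mice, which come from pool 2 (SE 0.33, adjusted p 0.037 by edgeR). The count was 29 without pool 1 of B2m-null anti-CD40, 0 without pool 2, 0 after thinning or with the stricter gate and 1 with lanes as samples. Under isotype, 0 members were called between genotypes by edgeR, where 0.169% of all genes were called, with 1 member at an unadjusted p under 0.05 and 0 by DESeq2. Under anti-CD40 Tyms was the 1 member called higher in B2m-null tumours, where 1.41% of all genes were called higher. It had 161, 95.8, 69.2 and 94.5 CPM against 25.3 and 23.6, with no overlap (1.98, SE 0.39, adjusted p 0.011). That count was 31 without pool 2 of B2m-null anti-CD40, 2 without pool 1, 4 by DESeq2, and 0 without lane 1 of control anti-CD40, with lanes as samples or after thinning. Tyms was also the 1 member whose interaction was called (2.19, SE 0.49, adjusted p 0.038), where 0.443% of all genes were called higher. The interaction count was 27 without pool 2 of B2m-null anti-CD40, and 0 without pool 1 of control isotype or without either lane of control anti-CD40, and 0 by DESeq2, with lanes as samples, after thinning or with the stricter gate.

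NK cells, which kill without antigen receptors and are restrained by MHC class I, had 34 members tested. In control tumours 3 were lower under anti-CD40, where 1.34% of all genes were called lower: the linker histones Hist1h1e and Hist1h1b and the helicase subunit Mcm4. Mcm4 had 72.3, 104, 69.5, 88.5 and 76.5 CPM under isotype and 33.6 and 41.2 under anti-CD40 (log2 fold change -1.07, SE 0.29, adjusted p 0.036 by edgeR), without overlap. Mki67 (-1.11, SE 0.63, adjusted p 0.38), Top2a (-0.74, SE 0.53, adjusted p 0.51) and Pcna (0.18, SE 0.26, adjusted p 0.78) were not called. Mki67 ranged from 28.9 to 354 CPM over the 5 isotype mice against 72.8 and 85.3, Top2a from 40.5 to 394 against 134 and 132, Pcna from 174 to 327 against 297 and 312, and Stmn1 from 75.2 to 526 against 224 and 194, so the groups overlapped in all 4. The count was 1 by DESeq2, after thinning, without lane 1 of control anti-CD40 or without pool 2 of control isotype. CD8 markers in the NK class stood at 0.672 and 1.56 per 10000 UMIs in the control anti-CD40 mice and at 0.053 to 0.15 in the control isotype mice. Plasmacytoid dendritic cell markers stood at 1.07 and 2.12 against 2.48 to 4.46, and B cell markers at 0.765 and 0.841 against 1.04 to 1.19. The part of these lists was not tested.

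In B2m-null tumours Hist1h1e was the 1 member lower in NK cells under anti-CD40, where 1.08% of all genes were called lower, and 0 were by DESeq2 or without either pool of B2m-null anti-CD40. The B2m-null isotype mice with enough NK cells both came from pool 2. No member was called in the other comparisons of NK cells. Between genotypes under isotype edgeR called 0, with 4 at an unadjusted p under 0.05 and 0 by DESeq2, where 0.0551% of all genes were called in either direction. Between genotypes under anti-CD40 edgeR called 0, with 11 at an unadjusted p under 0.05 and 0 by DESeq2, where 3.03% of all genes were called. All 34 fitted fold changes of that comparison were above 0, with a median log2 value of 0.98, and 2 members were called without pool 2 of B2m-null anti-CD40 or without pool 1 of control isotype. The interaction had 0 called by edgeR, 3 at an unadjusted p under 0.05 and 0 by DESeq2, where 1.05% of all genes were called.

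Monocytes and macrophages, with 434 to 7484 cells per mouse, had all 43 members tested. In control tumours 15 were lower under anti-CD40, where 10.2% of all genes were called lower, with a median log2 fold change of -0.59. They were 3 of 3 linker histones, 6 of 10 spindle and chromosome genes, 3 of 9 origin genes, 3 of 14 mitotic regulators and 0 of 7 synthesis genes. Mcm4 had 39.6, 37.8, 42.6, 35.0 and 43.2 CPM in the isotype mice and 24.3 and 25.2 in the anti-CD40 mice (log2 fold change -0.54, SE 0.14, adjusted p 0.012 by edgeR). Kif11, the motor that pushes spindle poles apart, had 23.4, 23.3, 35.0, 38.3 and 35.5 CPM against 10.3 and 16.0 (-1.07, SE 0.28, adjusted p 0.013). Mki67 had 64.3, 66.6, 116, 129 and 127 CPM against 36.6 and 45.5 (-1.16, SE 0.32, adjusted p 0.019). Tpx2 had 36.4, 33.4, 46.7, 54.5 and 47.4 CPM against 20.3 and 24.2 (-0.83, SE 0.23, adjusted p 0.017). In these genes the anti-CD40 mice lay below all isotype mice. Pcna (-0.04, SE 0.14, adjusted p 0.88) and Stmn1 (-0.41, SE 0.23, adjusted p 0.22) were not called. The count was 3 without pool 2 of control isotype, 9 without lane 1 of control anti-CD40, 6 after thinning and 8 with lanes as samples, where 1.88% of all genes were called lower.

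B2m-null tumours gave a like number in this class, with 12 members lower under anti-CD40, where 18.9% of all genes were called lower, against 27.9% of the members. They were 3 of 3 linker histones, 6 of 10 spindle and chromosome genes, 2 of 9 origin genes and 1 of 14 mitotic regulators. Top2a had 102, 109, 75.3 and 79.6 CPM under anti-CD40 and 235, 148, 144, 109 and 174 under isotype (log2 fold change -0.63, SE 0.19, adjusted p 0.015 by edgeR), and the highest anti-CD40 mouse met the lowest isotype mouse. Mki67 had 57.8, 62.7, 56.1 and 58.4 CPM against 152, 84.5, 81.3, 70.6 and 148 (-0.68, SE 0.25, adjusted p 0.04), without overlap. The 2 anti-CD40 pools overlapped each other in Mki67. Kif23 had 23.5, 22.1, 17.7 and 17.2 CPM against 44.4, 35.1, 35.9, 24.4 and 35.9 (-0.60, SE 0.17, adjusted p 0.01), and Hist1h1d had 2.10, 2.30, 3.22 and 3.95 against 7.82, 4.94, 7.46, 9.14 and 11 (-1.33, SE 0.30, adjusted p 0.0026), both without overlap. The count was 3 without pool 2 of B2m-null anti-CD40 or without pool 1 of B2m-null isotype, 7 after thinning and 11 with lanes as samples, where 9.13% of all genes were called lower. T cell markers in this class stood at 0.558 to 1.45 per 10000 UMIs under anti-CD40 and 0.191 to 0.516 under isotype over both genotypes. Conventional dendritic cell markers, all 11 detected in each group, stood at 0.549 to 0.827 under isotype and 0.200 to 0.228 under anti-CD40 in control tumours, and at 0.402 to 1.34 and 0.195 to 0.307 in B2m-null tumours. Melanoma markers stood at 0.872 to 1.16 and 0.562 to 0.638 in B2m-null tumours, without overlap, and at 0.880 to 1.07 and 0.899 to 0.957 in control tumours. NK markers stood at 0.361 to 0.753 and 0.165 to 0.271 in control tumours, and neutrophil markers at 0.330 to 0.737 and 0.796 to 0.905. The part of these markers in the result was not tested.

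Between genotypes, 0 of the 43 members were called in monocytes and macrophages under isotype by edgeR, where 9.19% of all genes were called in either direction. At an unadjusted p under 0.05, 0 passed, and DESeq2 called 0. Under anti-CD40 Ccnb2 was the 1 member higher in B2m-null tumours, where 4.55% of all genes were called higher, with 32.7, 29.4, 27.2 and 28.4 CPM against 14.2 and 15.6 in the control mice (0.98, SE 0.26, adjusted p 0.026). That count was 0 without pool 1 of B2m-null anti-CD40 or lane 2 of control anti-CD40, 2 without pool 2 of B2m-null anti-CD40 or pool 1 of B2m-null isotype, and 5 without pool 2 of B2m-null isotype. It was 5 by DESeq2 and 0 with lanes as samples or after thinning. The interaction called Gins2 (1.11, SE 0.30, adjusted p 0.018) and Ccnb2 (1.08, SE 0.32, adjusted p 0.026), where 9.07% of all genes were called higher. Gins2 had 11.8 and 13.5 CPM in control anti-CD40 mice against 24.8, 16.8, 29.8, 24.6 and 24.0 under isotype, and 21.3, 21.8, 20.3 and 22.3 in B2m-null anti-CD40 mice against 22.2, 13.3, 14.9, 14.6 and 26.9 under isotype. The control groups did not overlap and the B2m-null groups did. The interaction count was 0 without pool 1 of B2m-null isotype, 4 without pool 2 of B2m-null isotype, and 1 without pool 2 of control isotype or without either pool of B2m-null anti-CD40. It was 0 with lanes as samples and 0 after thinning.

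Conventional dendritic cells, the class that primes T cells, had 41 members tested from 25 to 458 cells per mouse. In control tumours 2 members were lower under anti-CD40, Hist1h1e and Hist1h1b, where 0.445% of all genes were called lower, and the median log2 fold change was -0.16. The count was 0 with lanes as samples, after thinning or without lane 1 of control anti-CD40, and 1 with the stricter gate, without lane 2 of it, without either pool of control isotype or without pool 2 of B2m-null isotype. In B2m-null tumours the same 2 genes were lower, where 2.69% of all genes were called lower, and Cdk1 was higher, where 3.61% were called higher. Cdk1 had 43.8, 105, 84.7 and 36.0 CPM under anti-CD40 and 43.4, 22.6, 16.8, 31.0 and 32.3 under isotype, with groups that overlapped (log2 fold change 1.22, SE 0.32, adjusted p 0.027 by edgeR). In control tumours it had 12.8 and 49.4 against 40.6, 33.3, 50.8, 36.3 and 48.4, and was not called (-0.19, SE 0.45, adjusted p 0.91). In control tumours Mki67 had 70.5 and 152 CPM under anti-CD40 and 95.1 to 170 under isotype, Top2a 147 and 144 against 132 to 194, Pcna 205 and 194 against 202 to 246, and Stmn1 179 and 296 against 161 to 271. These 4 genes were not called, and their groups overlapped. CD8 markers in this class stood at 0.140 to 0.415 per 10000 UMIs under isotype and 0.388 to 1.53 under anti-CD40 in B2m-null tumours, and at 0.156 to 0.270 and 0.317 to 0.833 in control tumours. NK markers stood at 2.36 to 2.49 (7 of 7 detected) and 1.02 to 1.28 (3 of 7) in control tumours. The 11 markers of the class itself stood at 31.6 to 37.9 under isotype and 21.5 to 28.1 under anti-CD40 in control tumours, without overlap, and at 30.6 to 41.5 and 26.7 to 50 in B2m-null tumours. Regulatory T cell markers, with Foxp3 at 0 under anti-CD40, stood at 1.18 to 1.73 and 0.564 to 1.02 in control and at 1.54 to 4.55 and 0.36 to 1.53 in B2m-null tumours. The part of these markers was not tested. The count over both directions in B2m-null tumours was 6 without pool 1 of B2m-null anti-CD40, 5 by DESeq2, 1 with lanes as samples and 0 after thinning. Between genotypes edgeR called 0 members under isotype (9 at an unadjusted p under 0.05, 0 by DESeq2), where 0.85% of all genes were called, and 0 under anti-CD40 (5 and 0), where 0.589% were called. The interaction had 0 called (6 at an unadjusted p under 0.05, 0 by DESeq2), where 2.08% of all genes were called.

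**Figure D4:**
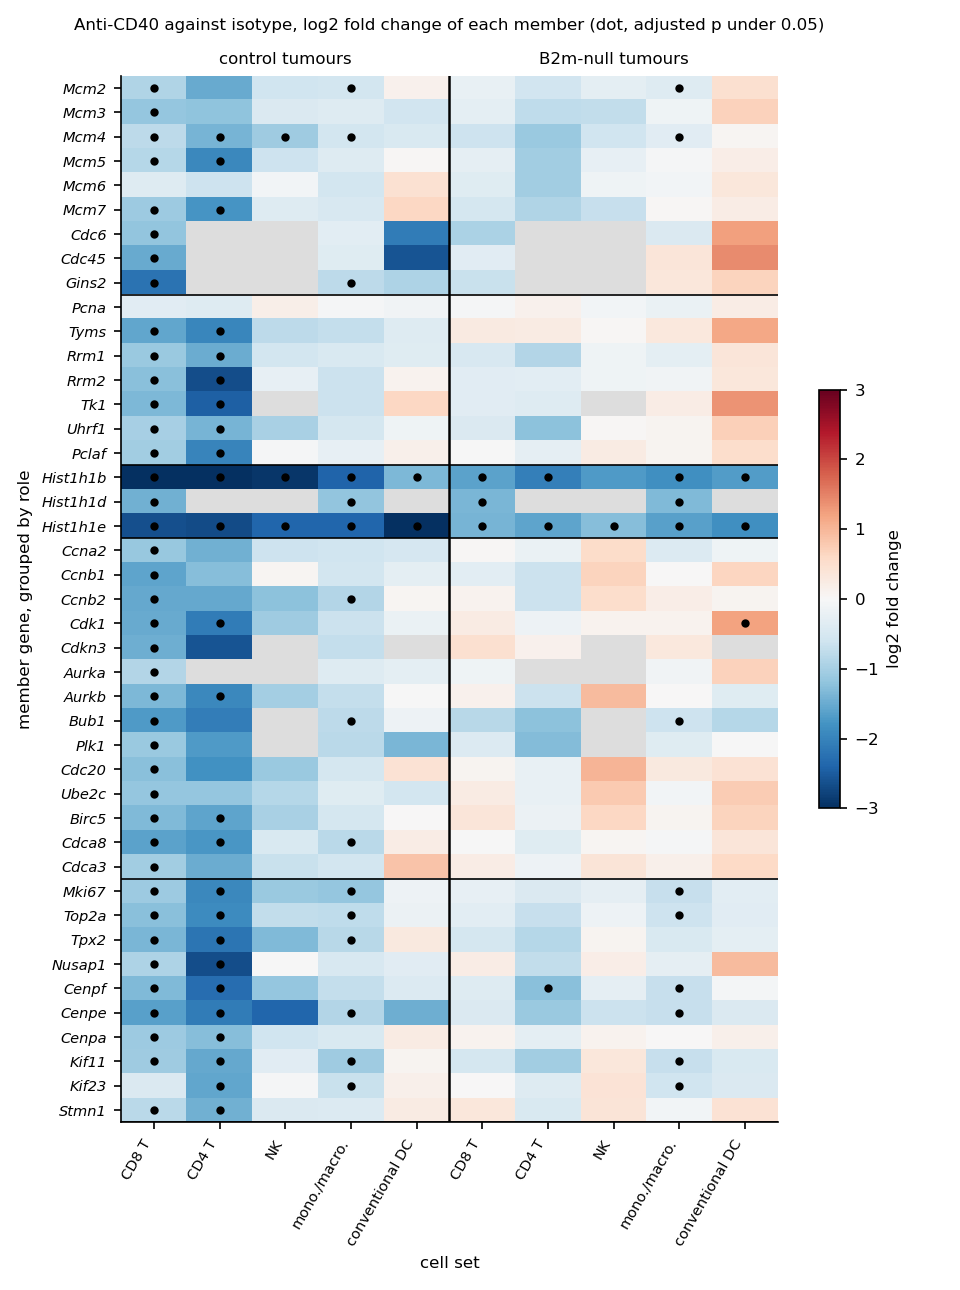
Log2 fold change of anti-CD40 against isotype (colour, from -3 in blue to 3 in red) for the 43 genes in rows, grouped by role, and 5 cell sets in columns, on the left for control and on the right for B2m-null tumours; dots mark an adjusted p under 0.05 and grey marks genes not tested. In control tumours 40 dots fall in CD8 T cells and 25 in CD4 T cells, and dots mark Hist1h1e in all 5 sets of both genotypes (a call lost under some alternatives in dendritic cells of both genotypes and in the lymphocyte sets of B2m-null tumours), while Hist1h1d was tested in CD8 T cells and in monocytes and macrophages.

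Hist1h1e was the 1 member called lower under anti-CD40 in all 5 sets of both genotypes, and Hist1h1b was called in all 5 of control and in 4 of B2m-null tumours. In 5 of these 10 comparisons the Hist1h1e call was lost under at least 1 alternative. In dendritic cells of control tumours it was lost with lanes as samples (adjusted p 0.077), after thinning (0.44) and without either lane of control anti-CD40. In those of B2m-null tumours it was lost with lanes (0.11), after thinning (0.65), without pool 1 (0.079) or pool 2 (0.054) of anti-CD40 and without pool 2 of isotype (0.055). In NK cells of B2m-null tumours it was lost by DESeq2, with lanes (0.067) and without pool 1 (0.077) or pool 2 (0.051) of anti-CD40, and in CD4 T cells by DESeq2, with lanes (0.053), with the stricter gate (0.3) and without pool 2 of anti-CD40 (0.22). After thinning no member was called in these CD4 T cells, so the Hist1h1e call was lost or the gene was not tested. In B2m-null tumours CD8 T cells lost it without pool 2 of isotype (log2 fold change -0.38, adjusted p 0.67 by edgeR). It was kept under every alternative that tested it in the other 5. In dendritic cells the Hist1h1e and Hist1h1b values under anti-CD40 rest on few UMIs, as given below. Hist1h1b calls were not kept throughout either. No member was called lower in dendritic cells of control tumours with lanes as samples, after thinning or without lane 1 of control anti-CD40. None was called in those of B2m-null tumours after thinning. In NK cells of control tumours the count was 1 by DESeq2, without lane 1 of control anti-CD40 or without pool 2 of control isotype. Hist1h1e kept its call there, so Hist1h1b did not. Hist1h1b, Hist1h1d and Hist1h1e encode H1 proteins, which bind the DNA between nucleosomes and compact chromatin, and much histone mRNA made in S phase lacks a poly(A) tail, so 3′ end libraries primed on poly(A) count only the tailed part. In CD8 T cells of control tumours Hist1h1b had 317, 250, 305, 218 and 278 CPM under isotype and 34.7 and 23.8 under anti-CD40 (log2 fold change -3.21, SE 0.36, adjusted p 5.7e-06 by edgeR). Hist1h1e had 160, 179, 191, 129 and 141 CPM against 28.5 and 21.6 (-2.64, SE 0.24, adjusted p 7e-07). The groups did not overlap in either gene. Hist1h1d, the least abundant of the 3, had 25.1, 13.6, 19.2, 14.7 and 16.5 CPM against 8.22 and 5.43 (-1.44, SE 0.30, adjusted p 0.0011). These genes resemble each other in sequence, and their separate values are uncertain because the sources used here do not say how shared reads were counted.

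In B2m-null tumours the CD8 T cell values of the linker histones also split under isotype. Hist1h1b had 76.7 and 78.1 CPM in pool 1 of isotype, from 39 and 26 cells, and 298 and 224 in pool 2, against 80.7, 80.0, 37.8 and 60.2 under anti-CD40 (log2 fold change -1.62, SE 0.29, adjusted p 0.0021 by edgeR). The pool 1 isotype mice lay among the anti-CD40 mice, and the pool 2 isotype mice lay far above them. Hist1h1e had 51.1 and 78.1 CPM in pool 1 and 143 and 115 in pool 2, against 38.1, 43.0, 33.9 and 43.3 (-1.39, SE 0.22, adjusted p 0.00065), without overlap. Hist1h1d had 17.1, 55.8, 31.5 and 33.6 CPM against 9.14, 11.9, 7.56 and 15.1 (-1.38, SE 0.30, adjusted p 0.0074), also without overlap. Hist1h1b and Hist1h1e were the 2 members called lower in all 5 sets of control tumours, and of the rest 1 was called in 4 sets, 6 in 3, 21 in 2, 11 in 1 and 2 in none, the last being Pcna and Mcm6. Some of these calls were lost under alternatives, as given above for both linker histones. A set in which a member was not tested counts here as not called, as for Hist1h1d, which was called in both sets that tested it. The share of all genes called in as many sets was not counted.

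In CD4 T cells of control tumours Hist1h1b had 258, 298, 381, 281 and 350 CPM under isotype and 40.6 and 10.5 under anti-CD40 (log2 fold change -3.79, SE 0.41, adjusted p 6e-06 by edgeR). In monocytes and macrophages it had 39.8, 51.5, 77.2, 80.7 and 83.1 CPM against 12.0 and 11.1 (-2.41, SE 0.37, adjusted p 0.0003). In B2m-null tumours that class had 80.5, 29.1, 40, 49.5 and 83.4 CPM under isotype and 17.5, 15.1, 11.8 and 14.1 under anti-CD40 (-1.84, SE 0.28, adjusted p 0.00014). In CD4 T cells of B2m-null tumours it had 191 and 220 CPM against 111, 44.7, 35.2 and 43.2 (-2.05, SE 0.32, adjusted p 0.00097). In all 4 comparisons the groups were apart, and in monocytes and macrophages both pools of B2m-null anti-CD40 were low. Hist1h1e in that class had 29.0, 42.7, 69.4, 50.8 and 47.1 CPM against 7.68 and 8.86 in control tumours (-2.38, SE 0.32, adjusted p 9.7e-05), and 40.7, 22.2, 25.8, 42.1 and 54.2 against 11.4, 12.3, 10.6 and 10.5 in B2m-null tumours (-1.62, SE 0.24, adjusted p 0.00013). In CD4 T cells Hist1h1e had 101, 87.5, 269, 128 and 152 CPM against 30.4 and 15.7 in control tumours (-2.69, SE 0.48, adjusted p 0.0012), and 120 and 133 against 50.4, 44.7, 27.2 and 51.4 in B2m-null tumours (-1.57, SE 0.37, adjusted p 0.02). The groups did not overlap in any of these 4 comparisons of Hist1h1e.

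Hist1h1e in NK cells had 155, 149, 86.8, 85.0 and 108 CPM under isotype and 25.2 and 17.7 under anti-CD40 in control tumours (log2 fold change -2.39, SE 0.36, adjusted p 0.0002 by edgeR). In B2m-null tumours it had 164 and 118 in the isotype mice, both from pool 2, against 49.3, 69.6, 35.5 and 73.0 (-1.28, SE 0.29, adjusted p 0.015). These groups did not overlap, whereas Hist1h1b in NK cells of control tumours ranged from 5.79 to 197 CPM under isotype against 14.0 and 11.8 (-2.93, SE 0.82, adjusted p 0.045) and did overlap. In conventional dendritic cells Hist1h1b had 76.3, 71.6, 94.7, 77.8 and 92.1 CPM against 32.0 and 31.7 in control tumours (-1.35, SE 0.34, adjusted p 0.041). In B2m-null tumours it had 94.4, 55.6, 67.1, 71.8 and 73.2 against 6.26, 28.7, 28.3 and 18.0 (-1.69, SE 0.32, adjusted p 0.0042), and neither comparison had overlapping groups. Hist1h1e in that class had 49.3, 57.9, 75.2, 56.4 and 49.4 CPM against 6.41 and 3.53 in control tumours (-3.59, SE 0.71, adjusted p 0.0057), and 54.7, 31.3, 40.3, 60.4 and 60.3 against 12.5, 0, 24.7 and 6.00 in B2m-null tumours (-1.83, SE 0.44, adjusted p 0.016), again without overlap. The anti-CD40 sums of dendritic cells held 104684 to 283659 UMIs. The values of both genes there rest on few UMIs, and those of Hist1h1e lie near the floor. The control anti-CD40 sums of NK cells held 356937 and 339769 UMIs, so Hist1h1b at 14.0 and 11.8 CPM rests on few UMIs too.

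Linker histone UMIs per 10000, summed over the 3 genes, were also measured in cells with and without Mki67 or Top2a and in carried-over non-immune cells. In CD8 T cells of control tumours the sum was 5.02, 4.43, 5.15, 3.61 and 4.35 under isotype and 0.714 and 0.508 under anti-CD40. Within CD8 T cells with Mki67 or Top2a it was 4.63 to 6.16 against 1.17 and 1.44, and within the remaining CD8 T cells 0.546 to 1.29 against 0.165 to 0.194. Among control cells without either gene the sum was 0.789 to 1.37 against 0.203 and 0.284 in NK cells and 0.234 to 0.445 against 0.0604 and 0.0646 in monocytes and macrophages, whereas in CD4 T cells it was 0.218 to 0.795 in 4 isotype mice against 0.202 and 0.229, which overlapped. In CD8 T cells of control tumours with Mki67 or Top2a the 14 mitotic regulators summed to 18.6 to 20.5 against 11.9 and 16.7, a smaller ratio than that of the linker histones there. In monocytes and macrophages with Mki67 or Top2a the linker histone sum was 1.86 to 3.04 against 0.571 and 0.842 in control tumours, and 1.41 to 2.53 against 0.586 to 0.782 in B2m-null tumours. Carried-over fibroblasts of control tumours had 1.58 to 3.33 in the isotype mice and 0.131 and 0.341 in the anti-CD40 mice. Fibroblasts of B2m-null tumours, over all cells of a lane, had 1.04 and 1.02 under isotype and 0.424 and 0.252 under anti-CD40, and carried-over melanoma cells of control tumours had 0.659 to 1.56 against 0.327 and 0.357. No test was made of these sums.

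**Figure D5:**
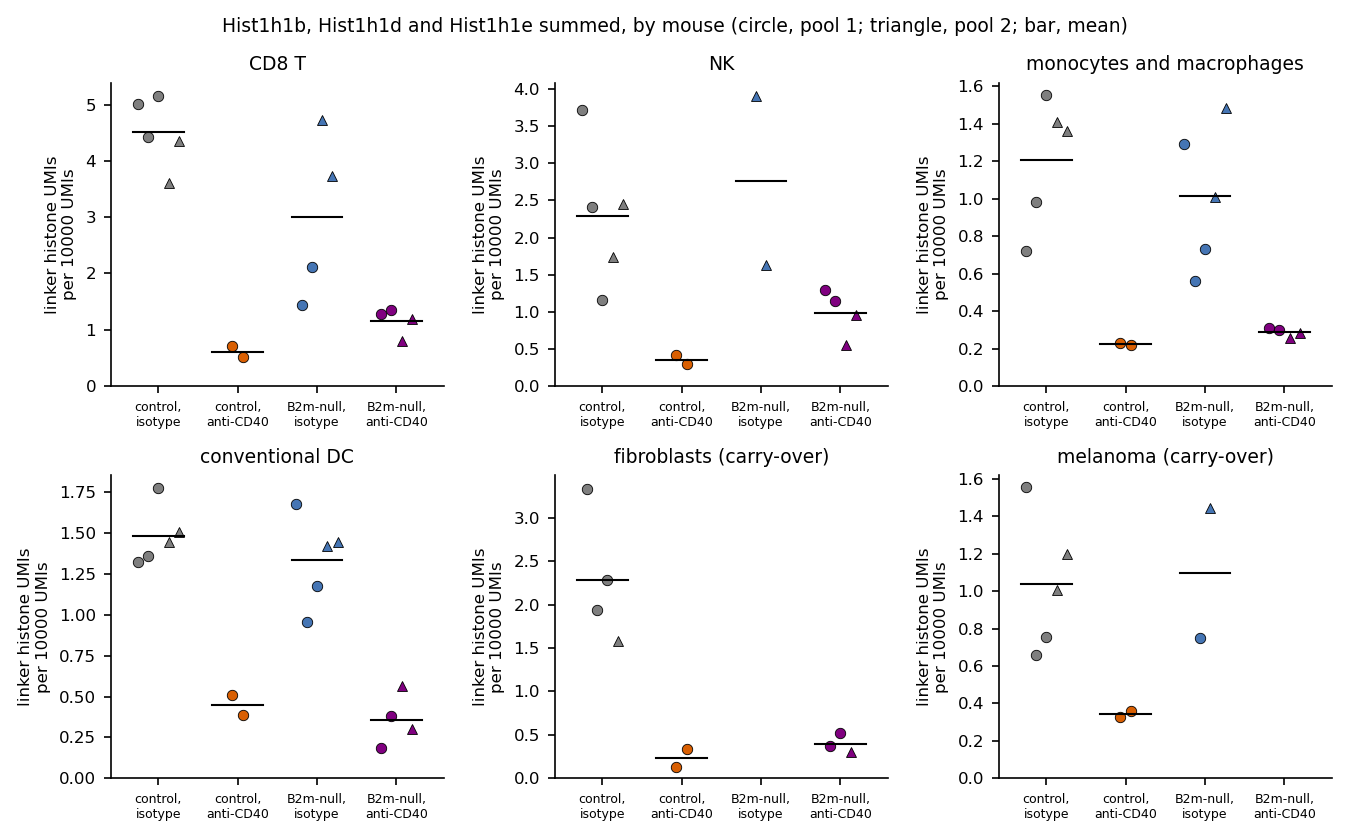
Summed UMIs of Hist1h1b, Hist1h1d and Hist1h1e per 10000 UMIs (y axis, each panel on its own scale from 0) in 6 cell classes for each mouse; circles are pool 1, triangles pool 2, bars group means. In monocytes and macrophages the 6 anti-CD40 mice sit between 0.221 and 0.310, and the isotype mice of both genotypes between 0.563 and 1.55.

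CD4 T cells and monocytes and macrophages shared 10 of the members called lower in control tumours, 40% of the 25 of CD4 T cells and 66.7% of the 15 of monocytes and macrophages, where 34.9% of all members were called in the latter and 65.8% of those tested in the former. CD8 T cells shared 24 with CD4 T cells (60% and 96%) and 14 with monocytes and macrophages (35% and 93.3%), where 93% of all members were called in CD8 T cells. Other genes of the cell cycle, from lists that hold none of the 43, were also tested in CD8 T cells of control tumours, where 18.8% of all genes were called lower and 19% higher. Of 46 other replication genes 34 were lower and 1 higher, led by Prim1 (log2 fold change -2.14), which primes DNA synthesis, Rfc4 (-1.92), which loads the clamp, and Tipin (-1.66) of the fork protection complex. Of 70 other mitotic genes 52 were lower and 1 higher, led by Dlgap5 (-1.78), a spindle protein, and Nuf2 (-1.93) and Knl1 (-1.88) of the kinetochore. Of 17 genes of the passage from G1 6 were lower and 1 higher: Cdk6 (-1.06), Cdk4 (-0.97) and Ccnd1 (-2.30) led, and Ccnd3 was the 1 higher. Of 15 other histone genes 8 were lower, led by Hist1h1a (-2.86). Among 20 inhibitors of cyclin-dependent kinases and quiescence genes 11 were higher and 3 lower, against those shares of 19% and 18.8% of all genes, led by the antiproliferative Tob1 (1.79) and Btg1 (1.05) and the transcription factor Foxo1 (1.43).

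In B2m-null tumours, where 3.34% of all genes were called lower in CD8 T cells and 6.37% higher, these cells had 4 of the 46 replication genes and 1 of the 70 mitotic genes lower under anti-CD40, with 1 higher in each, 5 of the 15 other histone genes lower, and 4 of the 20 inhibitor and quiescence genes higher. In CD4 T cells of control tumours 15 of 29 replication and 19 of 44 mitotic genes were lower, where 6.01% of all genes were. In monocytes and macrophages of control tumours 11 of 46 replication and 19 of 70 mitotic genes were lower, with 1 replication gene higher, where 10.2% of all genes were lower and 11.3% higher. The B2m-null counts of that class were 5 and 18 lower with 6 and 3 higher, and 9 of 16 other histone genes lower (5 of 16 in control tumours), where 18.9% of all genes were lower and 17.9% higher. In NK cells of control tumours edgeR called 1 of 26 replication genes, higher (5 at an unadjusted p under 0.05, 0 by DESeq2), where 2.59% of all genes were called higher, and 0 of 31 mitotic genes (4 and 0). In dendritic cells of control tumours it called 0 of 35 replication genes (0 at an unadjusted p under 0.05, 0 by DESeq2) and 0 of 52 mitotic genes (4 and 0). In dendritic cells of B2m-null tumours 2 of 35 replication genes (Dut and Rpa2) and 1 of 52 mitotic genes (Tubb4b) were higher, where 3.61% of all genes were.

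Across 73 sums of 1 mouse and 1 cell set, the genes outside the 43 whose level was most like the summed level of the 43 were Smc2 (Pearson r 0.942) and Smc4 (0.898), the core of the condensin complex, Mad2l1 (0.915), a spindle checkpoint protein, and Spc24 (0.896) of the kinetochore. Cks1b and Nasp (both 0.890), Ncl (0.881), Tipin (0.879) and Gmnn (0.869) were also among the most alike. The sums share mice, lanes and depth, so these values describe the ranking only. Among the 43 themselves, each against the sum of the others, Top2a (0.943), Rrm1 (0.932) and Pclaf (0.927) were most alike. Hist1h1e (0.562), Cdc6 (0.544) and Hist1h1d (0.482) were least alike.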

How the data were processed

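The study measured 3′ gene expression and hashtag antibodies of CD45+ cells from mouse melanomas. The deposited counts are whole UMI counts per gene and barcode, made with Cell Ranger 3.0.0 after bcl2fastq 2.20.0.422 on mm10, per the submitters' processing notes. Hashtag counts were used to assign barcodes to mice (posterior of at least 0.9, at least 20 hashtag counts, doublets above 2.5 SD in more than 1 hashtag). Per the labels, each pool had 3 hashtags, and 2 files hold 3 and 6 hold 2. Hashtag doublets (6153 barcodes, 5.28%) were left out, as were barcodes under 200 genes or over 10% mitochondrial UMIs, which left 74543 assigned cells. No other doublet caller was run.

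Classes were gated on summed marker UMIs per 10000 UMIs (T cells 8, NK 12, B 10, monocytes and macrophages 40, conventional dendritic cells 8, plasmacytoid dendritic cells 40), with at least 2 marker UMIs. A cell was left out as mixed when a further class reached its own threshold and 0.5 of the best score. Cells with T and NK markers were exempt and kept. So were those with markers of monocytes and macrophages and of conventional dendritic cells or neutrophils, or of conventional and plasmacytoid dendritic cells. T cells with a Cd8a or Cd8b1 UMI and no Cd4 UMI were taken as CD8 T cells, and the reverse as CD4 T cells. The other 5532 assigned T cells were left out of both. The gate thresholds were chosen with the data in view. Mice with fewer than 20 cells of a class were left out of it. Sums per mouse were fitted in edgeR 4.0.16 (R 4.3.3) with TMM scaling, filterByExpr and glmQLFTest, all 4 groups in 1 fit, and DESeq2 1.42.0 was an alternative. The fits were tested on simulated data. Nothing in the labels says that mice of a pool came from separate experiments, so p-values measure the spread between these mice. Total counts per lane were 45985739 to 99264875 UMIs.

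By the rule for named genes, values are given for Mki67, Top2a, Pcna, Stmn1 and Hist1h1b, in full or as ranges where they decide a result, and per mouse for the 5 called members with the lowest adjusted p of a set and comparison, of each further list for up to 3 called genes, and the 10 genes most like the members are named, except 1 that is not reported here. Further genes named with values were chosen after their values were seen. The members and lists were chosen with earlier results of these data known. Whether pools of the same number pair was checked by the correlation of their deviations, for the pairs of groups with separate pools in each of the 5 cell sets. It was -0.08 to 0.25, and the values from 0.16 up all came from pairs with B2m-null anti-CD40. The numbers were not taken as pairs. Promoters are RefSeq's on GRCm38.p6, matched by symbol or synonym.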

Additional observations from a re-analysis of the deposited data

Results flagged for a closer look

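Of 26 groups of 4 or 5 mice examined for a value far from the others, 2 held one, where chance gives about 1 in 20. Mouse 1 of pool 1 of B2m-null anti-CD40 had the lowest share of monocytes and macrophages with Mki67 or Top2a, 18.6%, against 22.5% to 23.1% in the other 3 mice. Mouse 2 of pool 2 of B2m-null isotype had the lowest summed level of the 43 genes in CD8 T cells, 52.1 per 10000 UMIs, against 66.8 to 68.3 in the other 3 mice.

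The difference between the genotypes in the anti-CD40 contrast was itself tested in edgeR's quasi-likelihood fit with Benjamini-Hochberg adjustment. In CD8 T cells 13 of 43 members passed (30.2%, against 5.93% of all genes called higher), with interactions on the log2 scale of 1.93 for Cdkn3, 1.83 for Tyms, 1.74 for Cdk1, 1.69 for Birc5 and 1.66 for Ccnb2. Cdca8 had 1.60, Hist1h1b 1.59, Gins2 1.55, Aurkb 1.5, Ube2c 1.41, Hist1h1e 1.25, Cenpa 1.2 and Stmn1 1.14. In CD4 T cells Tyms passed with 2.19 (1 of 38, 2.63%, against 0.443% of all genes). In monocytes and macrophages Gins2 passed with 1.11 and Ccnb2 with 1.08 (2 of 43, 4.65%, below the 9.07% of all genes called higher). The CD8 T cell interactions rest on groups that split by pool, and the count moved from 13 to 38 without pool 2 of B2m-null anti-CD40 and to 1 without pool 1 of control isotype.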

How the results depend on the processing

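Counts are of members called with adjusted p under 0.05. The share of all genes called can move with an alternative too, and it is not given beside these counts. A shift in a count is therefore not shown to be particular to the members. In control tumours under anti-CD40, CD8 T cells went from 40 to 21 with lanes as samples; CD4 T cells from 25 to 3 with lanes and 7 after thinning; NK cells from 3 to 1 with DESeq2, 8 without the filter and 1 after thinning; monocytes and macrophages from 15 to 8 with lanes and 6 after thinning; dendritic cells from 2 to 0 with lanes, 0 after thinning and 1 with the stricter gate. In B2m-null tumours under anti-CD40, CD8 T cells went from 3 to 7 without the filter and 13 with the replicate block; CD4 T cells from 3 to 8 without the filter, 1 with lanes, 0 after thinning, 0 with the stricter gate and 10 with the replicate block; NK cells from 1 to 0 with DESeq2 and 3 without the filter; monocytes and macrophages from 12 to 7 after thinning; dendritic cells, both directions, from 3 to 5 with DESeq2, 1 with lanes and 0 after thinning. Between genotypes under isotype, CD8 T cells and dendritic cells went from 0 to 1 without the filter. Between genotypes under anti-CD40, CD8 T cells went from 17 to 33 without the filter, 0 with lanes and 3 after thinning; CD4 T cells from 1 to 4 with DESeq2, 9 without the filter, 0 with lanes and 0 after thinning; NK cells from 0 to 7 without the filter and 2 with the stricter gate; monocytes and macrophages from 1 to 5 with DESeq2, 2 without the filter, 0 with lanes, 0 after thinning and 2 with the stricter gate. The interaction in CD8 T cells went from 13 to 28 without the filter, 0 with lanes, 4 after thinning and 8 with the stricter gate; in CD4 T cells from 1 to 0 with DESeq2, 4 without the filter, and 0 with lanes, thinning or the stricter gate; in NK cells from 0 to 2 without the filter; in monocytes and macrophages from 2 to 0 with lanes and thinning; in dendritic cells from 0 to 2 without the filter and 1 with the stricter gate. The lane alternative also added cells with no assigned mouse and tested more genes, and the cause of these shifts was not tested.

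Leaving out 1 pool or lane, counts ranged in control tumours from 23 to 41 in CD8 T cells, 8 to 35 in CD4 T cells, 1 to 3 in NK cells, 3 to 18 in monocytes and macrophages and 0 to 2 in dendritic cells. In B2m-null tumours they ranged from 1 to 25, 0 to 29, 0 to 1, 3 to 13 and 2 to 6 in that order. Between genotypes under isotype they ranged from 0 to 2 in CD8 T cells and 0 to 1 in dendritic cells. Under anti-CD40 they ranged from 7 to 39, 0 to 31, 0 to 2, 0 to 5 and 0 to 1, and for the interaction from 1 to 38 in CD8 T cells, 0 to 27 in CD4 T cells, 0 to 4 in monocytes and macrophages and 0 to 2 in dendritic cells. The replicate block, by pool number, changed no other count by over 1.5 times, and the pool numbers are no design pairs. Its counterpart without the control anti-CD40 mice was added after seeing the data.

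Mean share under anti-CD40 minus isotype, in percentage points, went after thinning from -32.2 to -16.9 in CD8 and from -34.1 to -24.3 in CD4 T cells of control tumours. In dendritic cells it went from -9.07 to -1.96 (control) and from 5.53 to -0.66 (B2m-null). In NK cells of control tumours it went from -2.41 to 0.0597 with at least 2 UMIs and to -0.18 with the stricter gate. Leaving out 1 pool or lane it ranged from -20.2 to 6.20 in B2m-null CD8 T cells, from -5.43 to 0.72 in control NK cells and from -14.7 to -2.58 in control dendritic cells. The summed level difference ranged from -30.4 to 8.04 per 10000 in B2m-null CD8 T cells and from -6.03 to 2.68 in control dendritic cells. Over 1303 alternatives for 90 results on single members, 1160 kept their call, 131 lost it, 12 gained it and 0 turned direction. Fewer genes passed the filter on low counts in CD4 T cells (4741) and NK cells (5444) than in CD8 T cells (10335), so members at low depth were not tested there.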
